A study of Mus musculus with 18 samples.

Results

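The comparison described here is that of separated epidermis from mice with Notch switched on in keratinocytes against separated epidermis from wild-type mice. It comprised the 3 arrays titled as epidermis of transgenic skin and the 3 titled as epidermis of wild-type skin, 6 of the 18 arrays of the series, chosen by title and not by any measured value. The other 12 arrays held dermis and whole skin of both genotypes. They entered the mean over 18 arrays that chose the probe set of each gene and the genes tested. Otherwise they served comparisons with those tissues and an alternative fit on all 18 arrays. Transgenic mice carried K14NICDER, a fusion of the Notch intracellular domain and the hormone-binding domain of the estrogen receptor, made under the keratin 14 promoter. That promoter acts in basal keratinocytes and in the outer root sheath of the hair follicle. Wild-type controls were of the same C57Bl6xCBA F1 background, and both groups were females, 7 weeks old at the start. Both groups, controls included, were given 4-hydroxytamoxifen (4OHT), which releases the fusion protein to the nucleus, for 14 days. Nothing in the labels says how many animals gave each sample, whether animals were pooled, or whether the epidermis, dermis and whole skin of a number came from 1 animal.

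Notch is a receptor between touching cells. A ligand of the Delta or Jagged family on a neighbour triggers cleavage of the receptor by a gamma-secretase complex, and the freed intracellular domain joins the DNA-binding protein Rbpj in the nucleus and switches on target genes such as those of the Hes and Hey families. In the epidermis the pathway is known for moving basal keratinocytes towards the spinous layer, and in the hair follicle for maintaining the inner root sheath. The question of the comparison is which epidermal genes differed after 14 days of this activity.

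Signal was the MAS5 value of an Affymetrix probe set on the log2 scale, so a difference of 1 is a factor of 2. Fold changes are transgenic minus wild type with the standard error (SE) of limma's fit and n = 3 arrays per group, and a gene rose or fell where its Benjamini-Hochberg adjusted p over all 13739 tested genes was below 0.05. The median change over all tested genes was −0.0951. The array number, not a depth, limits the precision of such values. The wild-type arrays were less alike than the transgenic ones. Over the tested genes, transgenic arrays correlated with each other at 0.921 to 0.938. Among wild-type arrays the correlation was 0.86 for replicates 1 and 2, 0.896 for replicates 1 and 3 and 0.908 for replicates 2 and 3. Wild-type replicate 2 correlated at 0.909, 0.896 and 0.935 with the 3 transgenic arrays, higher than wild-type replicate 1 (0.801 to 0.859) or 3 (0.84 to 0.891). Weights that limma estimated for the arrays were 0.815, 0.926 and 2.44 for transgenic replicates 1, 2 and 3, and 0.456, 0.502 and 2.373 for wild-type replicates 1, 2 and 3, so wild-type replicate 1 had the lowest. No pair of arrays was identical. Counts are given with and without wild-type replicate 2, whose removal raised them most, and the number of calls is given without every other array too.

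The samples carried keratinocyte RNA. Krt14, the basal-layer keratin, had log2 signals of 12.05, 12.38 and 12.09 in transgenic epidermis, against 13.03, 12.04 and 12.7 in wild-type epidermis. Krt10, the keratin of the suprabasal layers, read 12.51, 12.68 and 12.4 in transgenic epidermis, against 13.42, 12.61 and 13.38 in wild-type epidermis. Both genes overlapped between genotypes. Genes of other cells gave signal too, in both genotypes. Col1a1, the main fibrillar collagen of dermal fibroblasts, read 11.76, 12.08 and 11.71 in transgenic epidermis, against 11.04, 11.09 and 10.76 in wild-type epidermis, and the groups did not overlap (log2 change 0.88, adjusted p = 0.086). Summed over the 24 tested fibroblast markers, linear signal ran from 13700 to 20500 in transgenic epidermis and from 7270 to 14300 in wild-type epidermis. Langerhans cell markers summed to 8080 to 8970 in transgenic and 8410 to 8650 in wild-type epidermis. The 13 adipocyte markers summed to 1220 to 4360 in transgenic and 3410 to 4630 in wild-type epidermis. Their changes were positive for 7 and negative for 6, with a median of 0.07. The 20 tested vessel markers summed to 690 to 898 in transgenic and 511 to 648 in wild-type epidermis, without overlap. Of their changes 8 were positive and 12 negative, with a median of −0.23. Cdh5, a junction protein of vessels and a member of that list, had 3.49 to 4.02 in transgenic and 3.82 to 4.98 in wild-type epidermis, on the log2 scale. Adipoq, a fat cell hormone, had 2.85 to 4.85 in transgenic and 4.64 to 6.8 in wild-type epidermis. In transgenic epidermis the values of Cdh5 and the lowest of Adipoq lay near log2 3.15, the filter on dim probe sets. Signals that low are imprecise, and 0 is no floor on this scale. Notch1 gave no check of the genotype labels, because the part of the gene that its probes read is not known to lie in the transgene. It read 7.88, 7.57 and 8.6 in transgenic epidermis, against 8.34, 8.53 and 8.03 in wild-type epidermis.

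After 14 days, 327 of 13739 genes (2.38%) differed between transgenic and wild-type epidermis. Of these, 211 rose (1.54% of the genes tested) and 116 fell (0.844%). Each of the 327 differed at least 2-fold, with no overlap between the 3 transgenic and the 3 wild-type arrays. Absence of overlap was by itself common, since 1461 genes (10.6%) lay wholly higher and 1696 (12.3%) wholly lower in transgenic arrays. At an unadjusted p below 0.05 there were 2421 genes, 17.6% of those tested. The shares of all genes that rose, fell or lay wholly to 1 side are the measure for the counts of list members below. The number of calls depended on single arrays. Without wild-type replicate 2 it was 1385 genes (10.1%), 812 up (5.91%) and 573 down (4.17%), and all 327 genes were among them in the same direction. It was 229 without wild-type replicate 1, 73 without wild-type replicate 3, and 58, 78 and 161 without transgenic replicates 1, 2 and 3. For list counts given without wild-type replicate 2, the measure is the 5.91% up and 4.17% down of that fit. In such bulk samples, fewer cells of a type and less RNA per cell cannot be told apart.

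Several probe sets reported on many genes. Of 178 called genes with further probe sets on the array, 148 had every one of these on the same side of 0. When all 31526 probe sets above the filter were tested singly, 291 rose and 179 fell. At least 2 probe sets rose for 36 genes and at least 2 fell for 20 genes, and no gene had probe sets called in opposite directions. Abcc5, an organic anion exporter, fell with 4 probe sets and Gna14, a G protein subunit, with 3. Genes with 3 called probe sets that rose included Krt6a, Aldh1a3, Cd44, Runx1, Flt1, Enah and Tpi1. A further 37 probe sets rose and 30 fell among 5595 that carried the symbols of several genes or were not named here.

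The 15 largest increases joined keratinocyte genes of injured skin with genes of the matrix. Cthrc1, a secreted glycoprotein of remodelling matrix, had log2 signals of 8.05, 7.12 and 6.61 in transgenic epidermis, against 1.61, 0.78 and 1.65 in wild-type epidermis. The nearest arrays of the 2 groups were 4.96 log2 units apart, and the change was 5.92 ± 0.56 (SE, adjusted p = 0.00068). Krt6b, a keratin of wounded and hyperproliferative epidermis, read 11.11, 11.94 and 10.31 in transgenic epidermis, against 7.4, 4.38 and 3.92 in wild-type epidermis, a rise of 5.88 ± 0.76 (SE, adjusted p = 0.00443). Wild-type replicate 1 was the highest of its group for Krt6b and still lay below all transgenic arrays. Tubb3, a tubulin best known from neurons, read 7.41, 7.48 and 6.45 in transgenic epidermis, against 1.55, −1.09 and 3.33 in wild-type epidermis, and rose by 5.85 ± 0.95 (SE, adjusted p = 0.0129). Its wild-type values lay near the bottom of the scale. The collagenase Mmp13 read 9.22, 7.82 and 6.56 in transgenic epidermis, against 1.15, 1.95 and 2.98 in wild-type epidermis and rose by 5.84 ± 0.69 (SE, adjusted p = 0.00264). The other 11 were S100a8, Col8a1, 2610528A11Rik, Krt6a, Lrrc17, Lce3f, Degs2, Sprr1b, Sprr2d, Aldh1a3 and Krt73, with log2 changes of 5.51 for S100a8 to 4.39 for Krt73, a keratin of the inner root sheath. The uncharacterised transcript 2610528A11Rik read 9.35, 8.9 and 9.24 in transgenic epidermis, against 4.88, 3.67 and 4.07 in wild-type epidermis. Its groups did not overlap, and the change was 4.96. Degs2, which makes the phytoceramides of the barrier, rose by 4.65 ± 0.74 (SE, adjusted p = 0.0119). For Lrrc17 the other probe set gave −1.39 against 4.86 for the one used, so its direction is not settled.

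The 15 largest decreases included a stem cell keratin and secreted signals. Trpm3, a cation channel, read 1.09, −0.69 and −0.32 in transgenic epidermis, against 6.76, 5.68 and 6.35 in wild-type epidermis and fell by 6.24 ± 0.77 (SE, adjusted p = 0.00317), but its other 5 probe sets ranged from −3.75 to 1.14. Igfbp3, which binds insulin-like growth factors outside the cell, had 7.68, 5.8 and 5.3 in transgenic epidermis, against 9.61, 10.38 and 10.48 in wild-type epidermis. It fell by 3.9 ± 0.52 (SE, adjusted p = 0.00524), and its other probe set by 3.32. Smoc2, a calcium-binding matricellular protein, read 5.37, 4.79 and 4.74 in transgenic epidermis, against 8.84, 8.45 and 8.37 in wild-type epidermis. The groups were 3 log2 units apart at their nearest arrays, and the change was −3.59 ± 0.31 (SE, adjusted p = 0.000538). Krt15, Lgr6 and Rspo3 are described with the stem cell and Wnt genes. The remaining genes were Ushbp1, Gng13, Akap3, B4galnt2, Fam124b, Tmem45a2, Adh6b, Ttc9 and 1700128F08Rik, with log2 changes from −3.95 for Ushbp1 to −3.01 for 1700128F08Rik. For Gng13 the other probe set gave 0.09 and for Akap3 −0.45.

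**Figure D1:**
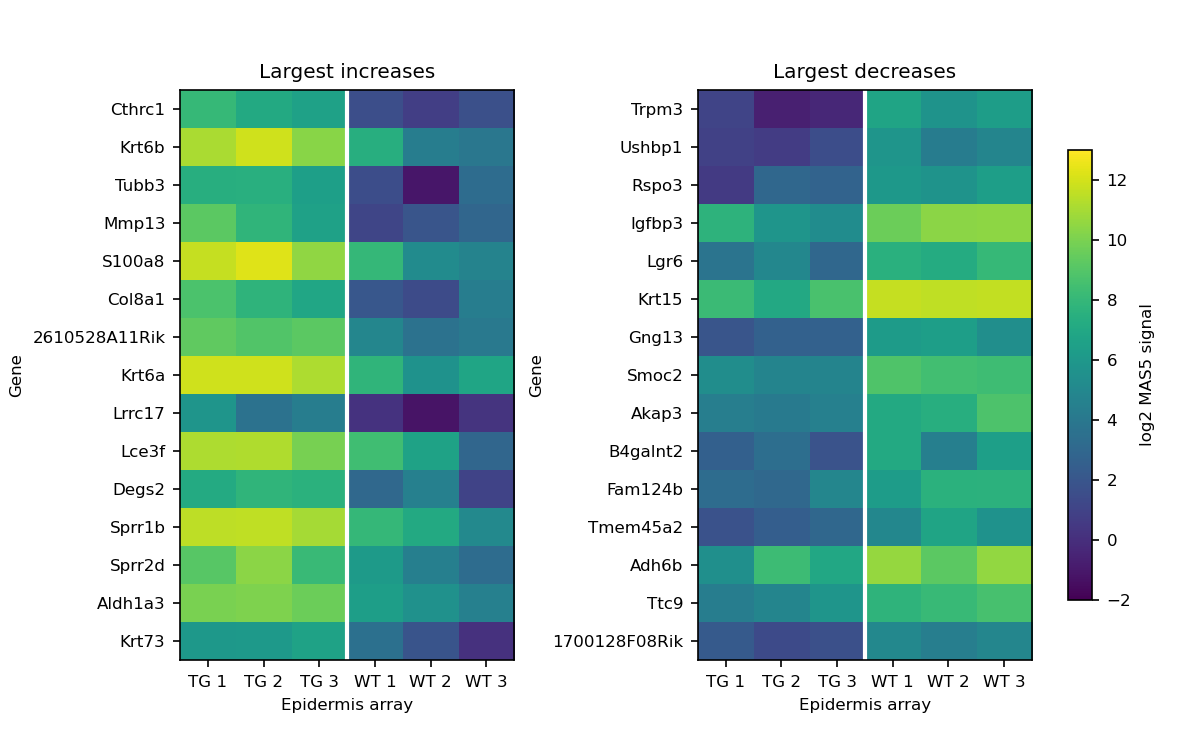
Log2 MAS5 signal, as colour, of the 15 genes with the largest increases (left panel) and the 15 with the largest decreases (right panel) on each transgenic (TG 1 to 3) and wild-type (WT 1 to 3) epidermis array; a white line parts the genotypes. Cthrc1 sits between 6.61 and 8.05 in transgenic and between 0.78 and 1.65 in wild-type epidermis, while Krt15 sits between 7.04 and 8.67 in transgenic and between 11.54 and 11.7 in wild-type epidermis.

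Within the Notch pathway itself, 2 ligand-side genes fell and the classical Hes and Hey targets did not pass the test. Dll1, a Delta-type ligand of basal keratinocytes, had log2 signals of 6.32, 6.18 and 6.52 in transgenic epidermis, against 8.65, 8.57 and 9.05 in wild-type epidermis. All transgenic arrays lay at least 2.05 log2 units below all wild-type arrays, a fall of 2.42 ± 0.26 (SE, adjusted p = 0.00144), and in whole skin Dll1 changed by −1.12 (adjusted p = 0.00252). Lfng, the fringe enzyme that adds sugar to the receptor and tunes its choice of ligand, read 5.5, 4.53 and 4.73 in transgenic epidermis, against 6.81, 6.63 and 6.7 in wild-type epidermis and fell by 1.8 ± 0.37 (SE, adjusted p = 0.0324). These were the only calls among the 14 tested genes for ligands, fringe enzymes and ligand regulators, whose median change was −0.83. The ligand Jag1 read 10.15, 9.83 and 10.07 in transgenic epidermis, against 8.96, 9.44 and 9.28 in wild-type epidermis, higher in every transgenic array but not past the threshold (0.78, adjusted p = 0.12). Jag2 had a log2 change of −1.26 (adjusted p = 0.078) and the non-canonical ligand Dlk2 −1.41 (adjusted p = 0.136). The count of falls was 1 without transgenic replicate 1, 2 or 3 and without wild-type replicate 1 or 3. Without wild-type replicate 2 it was 2, with 1 rise.

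Of 12 tested Notch targets, Bhlhe40 rose and Gata3 fell. Bhlhe40, a repressor of the basic helix-loop-helix class that is also induced by low oxygen and by the clock, read 10.1, 9.4 and 9.6 in transgenic epidermis, against 6.63, 6.97 and 6.27 in wild-type epidermis. It rose by 3.07 ± 0.28 (SE, adjusted p = 0.00068), and by 1.7 in whole skin (adjusted p = 0.00579). Gata3, a transcription factor of barrier and inner root sheath and a Notch target in T cells, read 7.96, 7.65 and 8.5 in transgenic epidermis, against 9.66, 9.41 and 9.52 in wild-type epidermis and fell by 1.49 ± 0.26 (SE, adjusted p = 0.0189). Heyl had the largest positive change of the Hes and Hey genes: 6.04, 5.28 and 4.44 in transgenic epidermis, against 0.59, 3.13 and 3.87 in wild-type epidermis. Its wild-type values spread over 3.28 log2 units, the change of 2.72 ± 0.85 had an adjusted p of 0.138, and its other probe sets ranged from −0.39 to 2.07. In whole skin Heyl was called, at 2.4 (adjusted p = 0.000241). Hes1 changed by −0.34 (adjusted p = 0.652), Hey1 by −0.95 and Hey2 by −0.98. Nrarp, a feedback inhibitor made in response to Notch, read 10.38, 10.36 and 10.35 in transgenic epidermis, against 10.52, 9.93 and 10.23 in wild-type epidermis, with overlapping groups. Without transgenic replicate 1 or 2 or wild-type replicate 3 the list had 1 rise and no fall, and without wild-type replicate 2 it had 2 rises and 1 fall. Hes5 lay below the filter on dim probe sets. None of the 12 receptor and processing genes passed in limma's test, nor did any have an unadjusted p below 0.05. None of the 13 nuclear partners passed, and 4 had an unadjusted p below 0.05, 3 of them with a negative change, where 17.6% of all genes had such a p. Notch2 changed by 0.26 and Notch3 by −0.42.

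Stress keratins and keratinocyte alarm proteins, which adult epidermis makes after wounding, had the highest median change of the lists examined. Of 11 tested members 9 rose, where 1.54% of all genes did, and none fell, with a median log2 change of 3.78. In all 11 the transgenic arrays lay wholly higher, as in 10.6% of all genes. Krt6a read 11.91, 11.89 and 11.15 in transgenic epidermis, against 7.8, 5.67 and 6.8 in wild-type epidermis. The lowest transgenic array lay 3.35 log2 units above the highest wild-type array, the change was 4.89 ± 0.46 (SE, adjusted p = 0.00068), and its other probe sets gave 5.68 to 7.09. Krt16, its partner keratin, rose by 3.51 ± 0.54 (SE, adjusted p = 0.00997) and Krt17 by 1.44 ± 0.24 (SE, adjusted p = 0.0163), though the other probe set of Krt17 gave −0.23. S100a8 and S100a9 form calprotectin, an antimicrobial protein of stressed keratinocytes and of neutrophils. S100a8 read 11.7, 12.28 and 10.5 in transgenic epidermis, against 7.99, 5.26 and 4.72 in wild-type epidermis and rose by 5.51 ± 0.73 (SE, adjusted p = 0.00502), and S100a9 rose by 3.97 ± 0.43 (SE, adjusted p = 0.0015). Slpi, an inhibitor of leukocyte elastase, rose by 4.37 ± 0.5 (SE, adjusted p = 0.00193), and Defb3, a beta-defensin, by 3.78 ± 0.53 (SE, adjusted p = 0.00647). Stfa3, a cysteine protease inhibitor, rose by 1.78. Cst6 (1.06, adjusted p = 0.0707) and the growth factor Hbegf (1.27, adjusted p = 0.107) did not pass. The number of rises was 5, 5 and 8 without transgenic replicates 1, 2 and 3, and 9, 10 and 7 without wild-type replicates 1, 2 and 3.

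S100a8 and S100a9 are also neutrophil genes. The 9 tested neutrophil markers summed to linear signals of 3080 to 10200 in transgenic and 437 to 812 in wild-type epidermis, a sum that these 2 genes enter. The only other call among them was a fall, in the decoy receptor Il1r2. The neutrophil protease gene Elane and the receptor Csf3r lay below the filter on dim probe sets, and Ly6g was not analysed here. The part of neutrophils in the S100a8 and S100a9 signal was not tested.

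Some cornification genes rose. Among 31 tested cornified envelope and keratohyalin proteins 6 rose, where 1.54% of all genes did, none fell and the median change was 0.35. Flg, the filaggrin precursor that bundles keratin in the granular layer, read 11.45, 11.74 and 11.47 in transgenic epidermis, against 8.7, 8.64 and 8.63 in wild-type epidermis. Transgenic arrays spanned 0.29 and wild-type arrays 0.07 log2 units with a gap of 2.75 between the groups, a rise of 2.9 ± 0.22 (SE, adjusted p = 0.000353). Rptn, a filaggrin relative, rose by 3.33 ± 0.45 (SE, adjusted p = 0.00524), though its other probe sets gave 0.49 to 3.38. Casp14, the protease that processes filaggrin, read 10.24, 10.82 and 10.31 in transgenic epidermis, against 7.54, 8.37 and 7.85 in wild-type epidermis and rose by 2.54 ± 0.28 (SE, adjusted p = 0.00169). The late cornified envelope genes Lce3f, Lce3a and Lce1h rose by 4.74, 2.91 and 1.31, while Lce1m had a change of −1.04 (adjusted p = 0.084). Lor, the bulk protein of the envelope, read 12.15, 12.26 and 11.93 in transgenic epidermis, against 13.41, 12.12 and 12.97 in wild-type epidermis, with wild-type replicate 2 inside the transgenic range and the other wild-type arrays above it (−0.72, adjusted p = 0.288). Ivl, involucrin, changed by 0.94 (adjusted p = 0.0866) and the cross-linking enzyme Tgm1 by 0.94 (adjusted p = 0.107). Rises numbered 3, 3 and 4 without transgenic replicates 1, 2 and 3, and 5, 8 and 4 without wild-type replicates 1, 2 and 3. There were also 3 falls without wild-type replicate 2.

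The small proline-rich proteins are cross-linked into the envelope and are induced by injury. Of 7 tested members 4 rose, where 1.54% of all genes did, with a median over the 7 of 2.83. Sprr1b rose by 4.64 ± 0.58 (SE, adjusted p = 0.00349), Sprr2d by 4.57 ± 0.7 (SE, adjusted p = 0.00969), Sprr2h by 3.52 and Sprr1a by 1.39. These genes are near copies of each other, so a probe set may read several of them. Leaving out transgenic replicates 1, 2 and 3 in turn gave 2, 3 and 3 rises, and leaving out wild-type replicates 1, 2 and 3 gave 5, 4 and 3.

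Kallikreins are serine proteases that cut the desmosomes of the shedding layer. Among 13 tested kallikreins and their inhibitors 4 rose, where 1.54% of all genes did, and none fell, with a median of 0.83. Klk6 read 10.76, 10.62 and 10.17 in transgenic epidermis, against 7.05, 7.13 and 6.06 in wild-type epidermis. The groups were 3.04 log2 units apart, and the rise was 3.77 ± 0.32 (SE, adjusted p = 0.000538). Klk13 rose by 3.86 ± 0.53 (SE, adjusted p = 0.00602), Klk8 by 1.87 and Klk10 by 1.28. The number of rises was 2, 2 and 3 without transgenic replicates 1, 2 and 3, and 4, 5 and 2 without wild-type replicates 1, 2 and 3. Among 17 serpins and cystatins, Serpinb6c rose by 2.92, Serpinb11 by 2.32, Serpinb3a by 1.32 and Stfa3 by 1.78, and none fell. The share of all genes that rose was 1.54%. Rises numbered 0, 0 and 1 without transgenic replicates 1, 2 and 3, and 2, 8 and 1 without wild-type replicates 1, 2 and 3. A single fall was called too without wild-type replicate 2.

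The main keratins of the resting layers did not pass the test. Krt5 changed by −0.23, Krt14 by −0.42 (adjusted p = 0.466), Krt1 by 0.76 and Krt10 by −0.6. Trp63, the master regulator of stratified epithelium, changed by −0.55. Of 15 basal genes, Krt15 and Col17a1 fell and Cd44 rose, with a median of −0.42. Of all genes 0.844% fell and 1.54% rose. Col17a1, a hemidesmosome collagen that anchors basal cells, read 10.25, 9.82 and 10.31 in transgenic epidermis, against 11.1, 11.36 and 11.47 in wild-type epidermis and fell by 1.19 ± 0.24 (SE, adjusted p = 0.0304). Cd44, the hyaluronan receptor, rose by 1.19 ± 0.21 (SE, adjusted p = 0.0182) and its other probe sets gave 1.17 to 1.89. The basal markers summed to linear signals of 15400 to 15800 in transgenic and 19800 to 25100 in wild-type epidermis, with no overlap. The falls of Krt15 and Col17a1 enter that sum. The basal list had 2 rises and 4 falls without wild-type replicate 2, and a single fall without transgenic replicate 1, 2 or 3 or wild-type replicate 3. Of 15 suprabasal genes Calml3, a calmodulin-like protein, rose by 1.27, a call lost on leaving out any array except wild-type replicate 2. Without that array 5 members rose and 3 fell, where 5.91% and 4.17% of all genes did.

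Cell contacts changed gene by gene. Gjb2, a gap junction connexin, read 10.68, 10.7 and 10.21 in transgenic epidermis, against 7.38, 6.78 and 6.34 in wild-type epidermis. It rose by 3.7 ± 0.3 (SE, adjusted p = 0.000538), and the same probe set gave 3.17 in whole skin and 2.87 in dermis. Of the other 15 tested tight and gap junction genes, Cgn (cingulin) fell by 1.94, Marveld2 (tricellulin) by 1.32 and the connexin Gjb5 by 1.07. The other probe set of Cgn gave −0.05. Without wild-type replicate 1 or 3 or transgenic replicate 1 or 2 none of these falls was called, and without transgenic replicate 3 there was 1. The list had 3 rises and 4 falls without wild-type replicate 2. None of the 17 desmosome genes passed in limma's test, and 5 had an unadjusted p below 0.05, 3 of them with a positive change, against 17.6% of all genes.

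**Figure D2:**
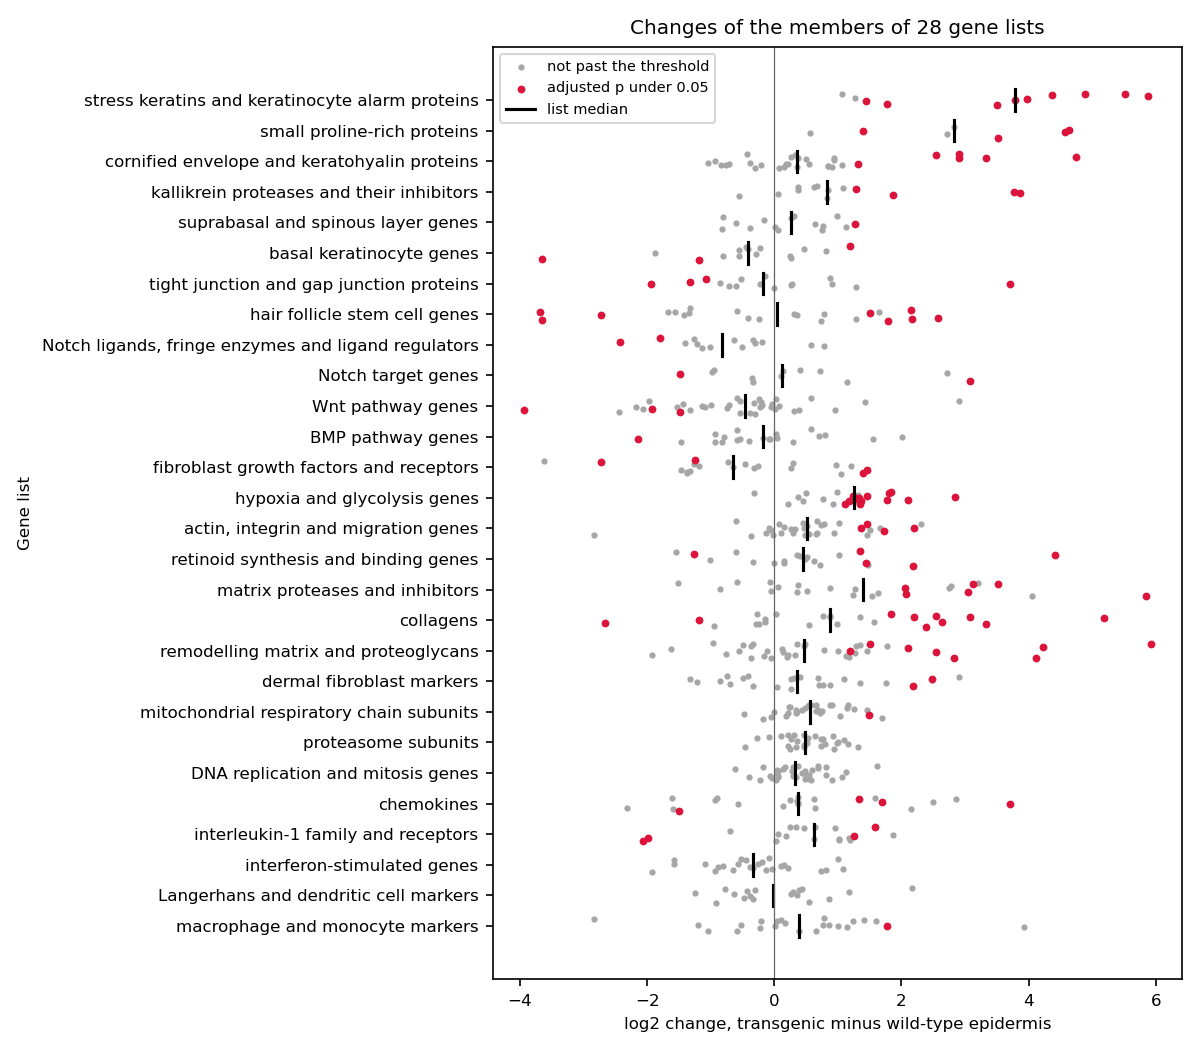
Log2 change in transgenic minus wild-type epidermis (horizontal axis) of the tested members of gene lists (vertical axis); each point is a gene, red where its adjusted p was below 0.05, and the black bar is the list's median. The bars of the stress keratins (3.78), the small proline-rich proteins (2.83), the matrix proteases (1.40) and the hypoxia and glycolysis genes (1.26) lie farthest to the right.

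Glycolysis turns glucose into lactate, and many of its enzymes are targets of the hypoxia-inducible factor Hif1, which binds DNA at a short core. The letters ACGTG are a form of that core, and the only form counted here. Of the 24 tested genes of glycolysis and the hypoxia response, 13 rose, where 1.54% of all genes did, and none fell. The median change was 1.26. In 20 of the 24 all transgenic arrays lay above all wild-type arrays, as in 10.6% of all genes, and 23 had a positive change. Their summed linear signal was 21700 to 25800 in transgenic and 9960 to 12800 in wild-type epidermis. The promoters of 4 of the genes that rose are shown, all 4 chosen among those with a match to these letters. Each is 300 bases around the start site, most of them before it, from RefSeq (GRCm38.p6), with ACGTG or its reverse complement CACGT in capitals. Egln3 lies at chr12:54203825-54204124 (minus strand), Pgk1 at chrX:106186850-106187149 (plus strand), Hk2 at chr6:82774405-82774704 (minus strand) and Bnip3 at chr7:138909457-138909756 (minus strand).
Egln3: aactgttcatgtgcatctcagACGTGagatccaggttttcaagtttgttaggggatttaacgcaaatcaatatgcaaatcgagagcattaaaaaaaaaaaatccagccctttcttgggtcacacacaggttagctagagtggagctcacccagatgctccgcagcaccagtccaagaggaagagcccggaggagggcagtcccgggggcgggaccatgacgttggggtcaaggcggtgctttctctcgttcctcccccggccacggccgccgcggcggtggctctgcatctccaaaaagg
Pgk1: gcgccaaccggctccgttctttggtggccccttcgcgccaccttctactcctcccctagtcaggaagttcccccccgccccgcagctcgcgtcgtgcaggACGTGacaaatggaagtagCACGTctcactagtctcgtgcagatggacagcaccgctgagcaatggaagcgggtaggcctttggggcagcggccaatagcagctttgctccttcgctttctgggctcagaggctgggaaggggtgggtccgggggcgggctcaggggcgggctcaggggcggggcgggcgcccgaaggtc
Hk2: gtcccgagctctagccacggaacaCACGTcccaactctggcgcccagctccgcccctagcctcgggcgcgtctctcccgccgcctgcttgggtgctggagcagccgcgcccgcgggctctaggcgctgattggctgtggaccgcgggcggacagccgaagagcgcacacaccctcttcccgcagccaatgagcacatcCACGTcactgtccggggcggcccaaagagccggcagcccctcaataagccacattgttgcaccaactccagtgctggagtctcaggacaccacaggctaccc
Bnip3: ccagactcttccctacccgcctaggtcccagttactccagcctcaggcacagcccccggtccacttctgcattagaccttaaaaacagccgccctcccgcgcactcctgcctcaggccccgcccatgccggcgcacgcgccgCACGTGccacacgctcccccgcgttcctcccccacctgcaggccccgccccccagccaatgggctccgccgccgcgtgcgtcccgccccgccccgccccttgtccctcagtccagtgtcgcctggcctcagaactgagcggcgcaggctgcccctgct

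The letters ACGTG, read on both strands, occurred in 9 of the 13 promoters of genes that rose (69.2%), in 14 of 23 with a listed promoter in the whole group (60.9%), in 2741 of 11007 promoters of tested genes (24.9%) and in 5315 of all 27025 (19.7%). The 9 were Egln3, Pgk1, Hk2, Bnip3, Ldha, Pgam1, Pfkfb3, Slc16a3 and Ankrd37. ACGTG lies inside the E-box CACGTG, which other factors bind, and that longer motif occurred in 3 of the 23 (13%), in 9.83% of the promoters of tested genes and in 7.24% of all promoters. In Bnip3 the 2 matches are the strands of 1 such E-box. A match of letters is a description of the sequence and no evidence of binding. The list was made of glycolysis genes and known hypoxia genes, so its share of these letters may follow from that choice. The part of Hif1 in these changes was not tested.

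Egln3, an oxygen-sensing prolyl hydroxylase that is itself induced by Hif1, read 10.47, 10.04 and 10 in transgenic epidermis, against 7.39, 7.69 and 6.92 in wild-type epidermis. The groups were 2.31 log2 units apart, the rise was 2.84 ± 0.27 (SE, adjusted p = 0.00068), and in whole skin it was 2.07 (adjusted p = 0.000241). Hk2, the hexokinase that traps glucose in the cell, read 9.28, 9.57 and 9.66 in transgenic epidermis, against 8.3, 8.28 and 8.25 in wild-type epidermis. Its wild-type arrays spanned 0.05 log2 units, and it rose by 1.23 ± 0.22 (SE, adjusted p = 0.0204). Pfkl, a subunit of the committing enzyme phosphofructokinase, rose by 1.35, and Pfkfb3, which makes that enzyme's activator, by 1.83 ± 0.35 (SE, adjusted p = 0.0244). Pgk1, which makes the first ATP of the pathway, read 11.18, 10.21 and 10.42 in transgenic epidermis, against 8.27, 9.42 and 8.72 in wild-type epidermis and rose by 1.8 ± 0.34 (SE, adjusted p = 0.0243). The other probe sets of Pgk1 gave 0.8 to 1.39. Further along the pathway Tpi1 rose by 1.11, Pgam1 by 1.23 and the pyruvate kinase Pkm by 1.18. Ldha, which reduces pyruvate to lactate, read 11.6, 11.53 and 11.21 in transgenic epidermis, against 9.83, 10.6 and 9.81 in wild-type epidermis and rose by 1.37 ± 0.27 (SE, adjusted p = 0.0294). Wild-type replicate 2 was the wild-type array nearest to the transgenic ones for both Pgk1 and Ldha. Slc16a3, the transporter that exports lactate, read 7.53, 7.85 and 7.1 in transgenic epidermis, against 6.24, 4.97 and 4.98 in wild-type epidermis and rose by 2.1 ± 0.4 (SE, adjusted p = 0.025). Hypoxia genes outside glycolysis rose too: Bnip3, a mitophagy receptor, by 1.45 ± 0.33 (SE, adjusted p = 0.0495), Ankrd37 by 1.78 and Car12, a carbonic anhydrase, by 1.33.

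Other members did not pass. Aldoa changed by 1.36 (adjusted p = 0.0797), Adm by 1.31 and Vegfa by 1.29, while the glucose transporter Slc2a1 changed by 0.38, Hif1a itself by 0.21 and Hk1 by −0.32. Gapdh, Eno1 and Gpi1 were not analysed here. Leaving out transgenic replicates 1, 2 and 3 in turn gave 1, 1 and 1 rises, and leaving out wild-type replicates 1, 2 and 3 gave 7, 16 and 1. The group's median was 1.28 without wild-type replicate 2. In whole skin the same 24 genes had a median of 0.41 with 5 past the threshold, and in dermis a median of 0.11. Respiratory chain subunits, the oxygen-using counterpart, gave 1 rise among 30 genes, Uqcrq at 1.49, whose other probe sets lay between −1 and −0.53. Their median was 0.57, and without wild-type replicate 2 there were 12 rises and 1 fall, where 5.91% of all genes rose and 4.17% fell. The 28 proteasome subunits had a median of 0.49, none past the threshold, 11 with an unadjusted p below 0.05, where 17.6% of all genes had one. Without wild-type replicate 2 there were 9 proteasome rises, where 5.91% of all genes rose.

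**Figure D3:**
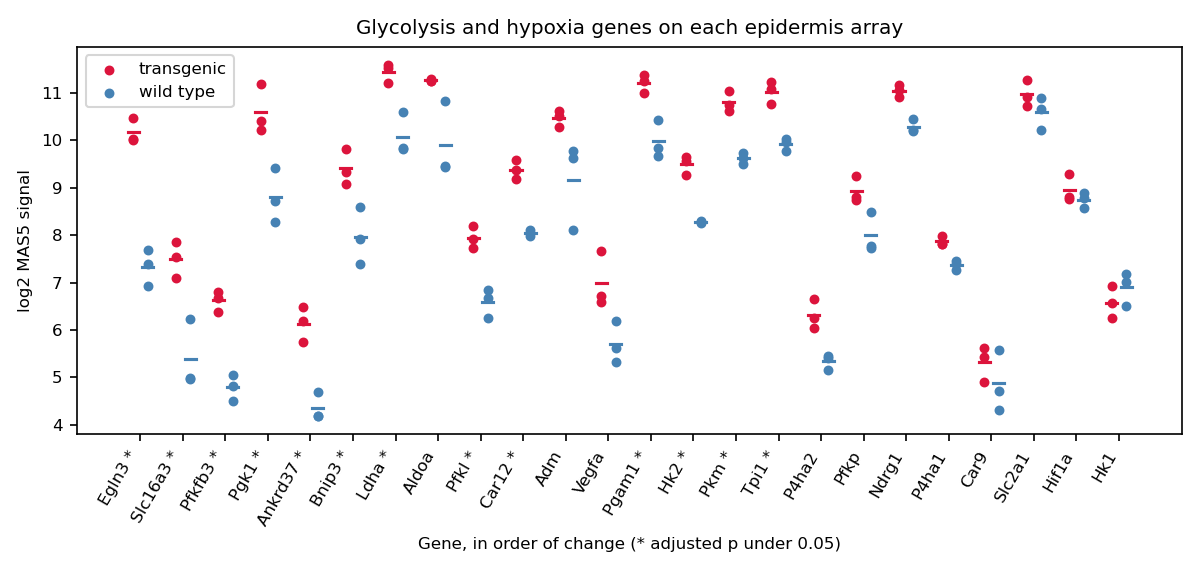
Log2 MAS5 signal of each tested glycolysis and hypoxia gene (horizontal axis, in order of change) on the 3 transgenic (red, left) and 3 wild-type (blue, right) epidermis arrays; bars are group means and an asterisk marks an adjusted p below 0.05. Egln3 shows the widest gap, with transgenic arrays at 10 to 10.47 and wild-type arrays at 6.92 to 7.69, and Hk1 at the right end has a change of −0.32.

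Vitamin A acts in epidermis as retinoic acid, which enzymes of the Aldh1a family make and Cyp26 enzymes remove. Aldh1a3 read 10, 10.12 and 9.64 in transgenic epidermis, against 6.38, 5.59 and 4.53 in wild-type epidermis. It rose by 4.42 ± 0.41 (SE, adjusted p = 0.00068) and its other probe sets by 4.03 to 4.97. Cyp26b1 read 6.36, 6.42 and 6.5 in transgenic epidermis, against 7.53, 7.63 and 7.93 in wild-type epidermis and fell by 1.27 ± 0.26 (SE, adjusted p = 0.034). The binding proteins Crabp1, Rbp2 and Crabp2, which carry retinoids in the cell, rose by 2.18, 1.44 and 1.34. Together 4 genes rose and 1 fell among 20 tested, where 1.54% and 0.844% of all genes did, with a median of 0.45. The number of rises was 1, 1 and 2 without transgenic replicates 1, 2 and 3, and 4, 4 and 1 without wild-type replicates 1, 2 and 3. In the fits without a transgenic array or without wild-type replicate 3, the fall of Cyp26b1 was not called either.

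Genes of the cytoskeleton and of cell movement gave 4 rises and no fall among 33, where 1.54% of all genes rose. Msn (moesin), which ties actin to the membrane, read 9.94, 9.58 and 9.69 in transgenic epidermis, against 7.72, 8.57 and 7.75 in wild-type epidermis and rose by 1.72 ± 0.28 (SE, adjusted p = 0.0133). Itgb8, the integrin subunit that frees active TGF-beta from its latent form, rose by 2.2 ± 0.31 (SE, adjusted p = 0.00617), the tropomyosin Tpm2 by 1.46 and Vcl (vinculin) by 1.36. Itgb6, another such integrin, had a change of 2.31 and just missed the threshold (adjusted p = 0.0526). Rises numbered 1, 1 and 3 without transgenic replicates 1, 2 and 3, and 4, 11 and 1 without wild-type replicates 1, 2 and 3. The fit without wild-type replicate 2 also gave 1 fall.

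Hair follicle genes moved in both directions. Of 22 stem cell and compartment genes 5 rose and 3 fell, where 1.54% and 0.844% of all genes did. Krt15, the keratin of bulge stem cells and of basal cells, read 8.2, 7.04 and 8.67 in transgenic epidermis, against 11.7, 11.54 and 11.65 in wild-type epidermis. The wild-type arrays spanned 0.16 log2 units and lay at least 2.87 above the transgenic arrays, a fall of 3.66 ± 0.36 (SE, adjusted p = 0.000834). In whole skin Krt15 changed by −0.16 and in dermis by −0.37. Lgr6, the R-spondin receptor that marks stem cells of the upper follicle and the epidermis, read 3.8, 4.95 and 2.99 in transgenic epidermis, against 7.5, 7.23 and 8.04 in wild-type epidermis and fell by 3.68 ± 0.5 (SE, adjusted p = 0.00536). Fgf18, a signal that holds follicles at rest, fell by 2.73. Runx1, a factor of the hair germ and bulge, rose by 2.58 ± 0.32 (SE, adjusted p = 0.00349), though its 5 other probe sets ranged from 0.12 to 2.53. Plet1 and Krt79, genes of the upper follicle and its duct, rose by 1.79 and 2.17, Sox9, a factor of the outer root sheath, by 1.51, and Sostdc1, a Wnt and BMP inhibitor, by 2.15. The number of rises was 1, 2 and 3 without transgenic replicates 1, 2 and 3 and 4, 6 and 1 without wild-type replicates 1, 2 and 3. The number of falls was 2, 2 and 2 and then 3, 6 and 2. Among 20 genes of the hair and its sheaths Krt73 alone rose, and among 16 sebaceous genes Scd3, a desaturase, fell by 1.79. The hair list had no rise without transgenic replicate 1, 2 or 3. The sebaceous list had no fall without transgenic replicate 1 or wild-type replicate 3.

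Wnt signals from the epidermis maintain stem cells and follicles. Of 36 tested pathway genes 3 fell, where 0.844% of all genes did, and none rose, with a median of −0.46. In transgenic arrays 14 lay wholly lower (12.3% of all genes did) and 4 wholly higher (10.6% of all genes did). Rspo3, which amplifies Wnt by way of the Lgr receptors, read 0.52, 3 and 2.8 in transgenic epidermis, against 5.99, 5.73 and 6.39 in wild-type epidermis. It fell by 3.93 ± 0.71 (SE, adjusted p = 0.02), but its other probe set gave 0.06. Wnt5a, a ligand that acts mostly without beta-catenin, fell by 1.49 and its other probe sets gave −1.81 to −1.01. The receptor Fzd10 fell by 1.92. Wnt3a (−1.97, adjusted p = 0.0521) and Wnt16 (−2.17, adjusted p = 0.082) did not pass. Falls numbered 1, 1 and 2 without transgenic replicates 1, 2 and 3, and 0, 5 and 0 without wild-type replicates 1, 2 and 3. There was also 1 rise without wild-type replicate 1 and there were 2 without wild-type replicate 2.

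Growth factor genes with a call were few and of both signs. Inhba, a subunit of activin, which wounded epidermis makes, read 7.69, 6.66 and 6.17 in transgenic epidermis, against 4.35, 3.34 and 2.51 in wild-type epidermis and rose by 3.44 ± 0.57 (SE, adjusted p = 0.0147). Other TGF-beta genes among the 24 tested were Ccn2 (1.51) and Skil (1.53), which rose, and Tgfbr3 (−1.52) and Ltbp4 (−1.92), which fell. Bmp4 fell by 2.15 ± 0.39 (SE, adjusted p = 0.0204), the sole call of 21 BMP genes, with no fall in the list without transgenic replicate 1, 2 or 3 or wild-type replicate 3. In the fibroblast growth factor group Fgfr1 (1.45) and the feedback phosphatase Dusp6 (1.4) rose, and Fgfr3 (−1.24) and Fgf18 fell. The epidermal growth factor receptor ligand Btc (betacellulin) fell by 1.8, with its other probe set at −1.85, and Phlda1 rose by 2.07. Edn1, endothelin, rose by 3.59 ± 0.64 (SE, adjusted p = 0.0189), and the secreted guidance proteins Sema3c and Sema3d fell by 1.71 and 2.45. No gene of the TGF-beta and fibroblast growth factor groups was called without transgenic replicate 1 or 2 or wild-type replicate 3. Without wild-type replicate 2 the TGF-beta group had 8 rises and 5 falls, where 5.91% of all genes rose and 4.17% fell. The list of Btc and Phlda1 had no fall without transgenic replicate 1 or 2 or wild-type replicate 3, and no rise without transgenic replicate 2 or wild-type replicate 3. The list of Edn1 and the semaphorins had no rise without transgenic replicate 1, 2 or 3.

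Genes of signals to immune cells also went both ways. Ccl20, which draws cells with the receptor Ccr6, read 5.99, 5.81 and 5.46 in transgenic epidermis, against 2.25, 2.43 and 1.46 in wild-type epidermis. The groups were 3.03 log2 units apart, and the rise was 3.7 ± 0.57 (SE, adjusted p = 0.00969). The neutrophil attractant Cxcl1 rose by 1.7 and Cxcl16 by 1.33. Cxcl14, a chemokine of resting epidermis, read 8.25, 7.77 and 8.4 in transgenic epidermis, against 9.72, 9.25 and 9.94 in wild-type epidermis and fell by 1.5 ± 0.27 (SE, adjusted p = 0.0204). These were the 4 calls among 22 chemokines, where 2.38% of all genes were called. Tslp, the keratinocyte cytokine that starts type 2 inflammation, read 6.35, 7.83 and 6.32 in transgenic epidermis, against 4.74, 4.56 and 3.69 in wild-type epidermis and rose by 2.5 ± 0.5 (SE, adjusted p = 0.0284). Il33, an alarm cytokine stored in the nucleus, read 7.24, 8.16 and 7.45 in transgenic epidermis, against 9.23, 9.7 and 9.86 in wild-type epidermis. It fell by 1.98 ± 0.3 (SE, adjusted p = 0.0091), and so moved opposite to Tslp. Retnla, a resistin-like protein induced by type 2 cytokines, fell by 2.29. The list of Tslp, Il33 and Retnla had no rise without transgenic replicate 1, 2 or 3 or wild-type replicate 3. It had no fall without transgenic replicate 1 or wild-type replicate 3. Of the interleukin-1 family, the epithelial cytokines Il1f8 and Il1f9 rose by 1.59 and 1.26 and the decoy receptor Il1r2 fell by 2.06. Receptor chains fell as well. Il20ra, which receives interleukin-20 cytokines, read 5.52, 4.93 and 5.12 in transgenic epidermis, against 7.46, 7.46 and 7.58 in wild-type epidermis and fell by 2.31 ± 0.31 (SE, adjusted p = 0.00502), and Il6st, the shared chain of interleukin-6 receptors, fell by 1.09 and its other probe sets by 1.01 to 1.13. The interleukin-1 group had no rise without transgenic replicate 1, 2 or 3 or wild-type replicate 1 or 3, and 5 rises and 2 falls without wild-type replicate 2. The list of Il20ra and Il6st had 1 fall on leaving out any array but wild-type replicate 2. Without that array it had 2 falls and 1 rise. Chemokine rises numbered 0, 0 and 1 without transgenic replicates 1, 2 and 3, and 2, 6 and 1 without wild-type replicates 1, 2 and 3.

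Markers of resident immune cells passed the test in few cases. Langerhans cell markers gave no call among 18, 5 of which had an unadjusted p below 0.05 against 17.6% of all genes, and Cd207 (langerin) read 4.92, 5.74 and 6.06 in transgenic epidermis, against 5.71, 6.3 and 5.65 in wild-type epidermis. Among 21 T cell markers Icos, a costimulatory receptor of activated T cells, rose by 1.53, and Cd3e, a chain of every T cell receptor, read 6.98, 7.85 and 7.82 in transgenic epidermis, against 9.09, 8.37 and 8.73 in wild-type epidermis, lower in all transgenic arrays without passing (−1.18, adjusted p = 0.0833). Among 23 macrophage markers Ctss rose by 1.78, 16 changes were positive and 7 negative, and the median was 0.39. Adgre1, with overlapping groups, had 3.67 to 4.3 in transgenic and 3.97 to 4.94 in wild-type epidermis. The complement gene C1qc rose by 2.82. Its list had no rise on leaving out any array but wild-type replicate 2. No T cell marker rose without transgenic replicate 1, 2 or 3 or wild-type replicate 3, and no macrophage marker without transgenic replicate 1 or 2 or wild-type replicate 1 or 3. None of 25 interferon-stimulated genes passed, with a median of −0.33 and 1 unadjusted p below 0.05 against 17.6% of all genes, and 1 gene rose without wild-type replicate 2.

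Matrix genes rose too. Of 24 collagens 8 rose and 2 fell, where 1.54% and 0.844% of all genes did, with a median of 0.87. Col6a2, a chain of the beaded-filament collagen VI, read 10.28, 10.25 and 9.57 in transgenic epidermis, against 7.35, 7.88 and 6.97 in wild-type epidermis. The groups were well apart, the rise was 2.63 ± 0.3 (SE, adjusted p = 0.0021) and its other probe set gave 2.47. The other collagen VI chains Col6a1 and Col6a3 rose by 2.55 and 3.33. Chains of collagen V, which sets fibril width, rose together, Col5a1 by 2.2, Col5a2 by 3.08 and Col5a3 by 1.84. Col8a1 read 8.78, 7.78 and 6.85 in transgenic epidermis, against 2.07, 1.43 and 4.38 in wild-type epidermis and rose by 5.18 ± 0.74 (SE, adjusted p = 0.00724), with its other probe sets at 0.71 to 3.25, and Col12a1 rose by 2.38. Col4a6, a basement membrane chain that keratinocytes make, fell by 2.67 ± 0.41 (SE, adjusted p = 0.01). The abundant dermal fibrillar collagens did not pass: Col1a1 changed by 0.88, Col1a2 by 1.34 (adjusted p = 0.156) and Col3a1 by 0.77 (adjusted p = 0.287). Without transgenic replicate 1 or wild-type replicate 3 neither collagen fall was called. Collagen rises numbered 1, 2 and 8 without transgenic replicates 1, 2 and 3, and 7, 13 and 2 without wild-type replicates 1, 2 and 3.

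Lrrc15, a membrane protein of activated fibroblasts, read 10.37, 9.46 and 9.1 in transgenic epidermis, against 5.9, 4.51 and 5.86 in wild-type epidermis. It rose by 4.22 ± 0.43 (SE, adjusted p = 0.00107) and its other probe set by 5.16. The tenascins Tnc and Tnn, adhesion-modulating proteins of healing skin, rose by 2.83 and 4.12, Fn1 (fibronectin) by 2.54 and the proteoglycan Bgn by 2.1. With Cthrc1, Cd44 and Ccn2 these made 8 rises and no fall among 37 remodelling genes, where 1.54% of all genes rose. Leaving out transgenic replicates 1, 2 and 3 in turn gave 3, 3 and 5 rises, and leaving out wild-type replicates 1, 2 and 3 gave 5, 10 and 3. Among 24 proteases and inhibitors 6 rose, where 1.54% of all genes did. They were Mmp13, Mmp10 (3.12), Adam12 (3.04) and the aggrecanases Adamts1 (2.07), Adamts4 (3.52) and Adamts5 (2.06). Mmp11 (4.06), Mmp12 (3.2) and their inhibitor Timp1 (2.78) did not pass, at adjusted p = 0.0619, 0.0888 and 0.0642. The number of rises was 1, 1 and 5 without transgenic replicates 1, 2 and 3, and 7, 12 and 2 without wild-type replicates 1, 2 and 3.

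Markers of fibroblasts and mural cells were read in the same samples. Of 24 fibroblast markers Pdgfrb and Crabp1 rose and none fell, where 1.54% of all genes rose. The list had a median of 0.35 and 8 negative changes. Pdgfrb, the growth factor receptor of fibroblasts and pericytes, read 9.16, 8.86 and 8.01 in transgenic epidermis, against 5.94, 6.51 and 6.15 in wild-type epidermis and rose by 2.48 ± 0.33 (SE, adjusted p = 0.00527). Acta2, smooth muscle actin, read 8.75, 8.99 and 8 in transgenic epidermis, against 6, 6.92 and 5.06 in wild-type epidermis and rose by 2.58 ± 0.45 (SE, adjusted p = 0.0178), the sole call of 19 mural and muscle genes. Of those 19, 13 had a negative change, the median was −0.42, and none was called without transgenic replicate 1 or 2 or wild-type replicate 3. Pdgfra had 6.74 to 7.16 in transgenic and 5.98 to 6.8 in wild-type epidermis. The fibroblast list had 10 rises without wild-type replicate 2, where 5.91% of all genes rose. It had 1 rise without transgenic replicate 1 or 2 or wild-type replicate 3. In whole skin, 5 of the 24 collagens, 5 of the 37 remodelling genes and 3 of the 24 proteases and inhibitors rose, where 1.71% of all genes did, and 2, 2 and 0 fell, with median changes of 0.19, 0.13 and 0.51. Among single genes there, Cthrc1 changed by 2.25, Tnc by 2.74, Col6a2 by 1.02, Fn1 by 0.06, Acta2 by −0.21 and Col1a1 by −0.01. The part of attached dermal cells in the matrix changes was not tested.

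**Figure D4:**
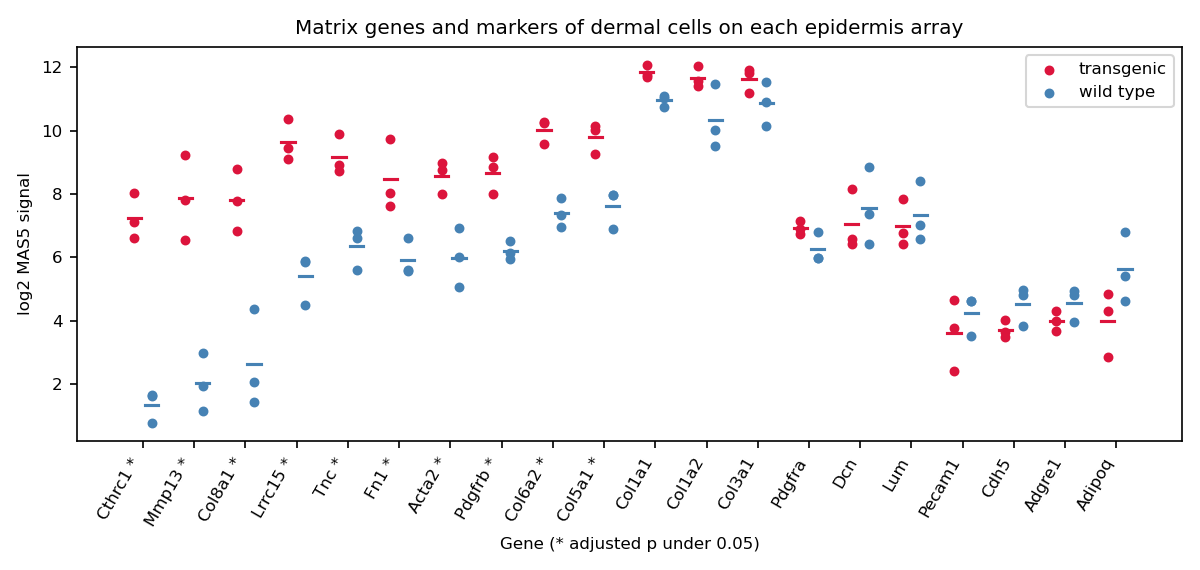
Log2 MAS5 signal of matrix genes and of markers of fibroblasts, vessels, macrophages and fat (horizontal axis) on the 3 transgenic (red, left) and 3 wild-type (blue, right) epidermis arrays; bars are group means and an asterisk marks an adjusted p below 0.05. Lrrc15 sits between 9.1 and 10.37 in transgenic and between 4.51 and 5.9 in wild-type epidermis, while Cdh5 and Adipoq are centred lower in transgenic arrays. Adipoq is 1 of 13 tested adipocyte markers, whose median change was 0.07. Cdh5 is 1 of 20 tested vessel markers, whose median change was −0.23. The vessel markers summed to linear signals of 690 to 898 in transgenic and 511 to 648 in wild-type epidermis.

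Some groups gave no call. Among 36 replication and mitosis genes none passed and 3 had an unadjusted p below 0.05, against 17.6% of all genes, although 30 changes were positive and the median was 0.32. Mki67, the proliferation marker, read 10.6, 10.73 and 10.77 in transgenic epidermis, against 10.17, 10.61 and 10.42 in wild-type epidermis, with overlapping groups. Without wild-type replicate 2, 3 of the 36 rose, when 5.91% of all genes did. The cell cycle inhibitor Cdkn1a changed by 0.41 (adjusted p = 0.394) and Myc by 0.11 (adjusted p = 0.824). The 21 tested ribosome and translation genes, the 24 heat shock and unfolded protein genes and the 20 cholesterol genes had no call, with 1, 7 and 4 unadjusted p-values below 0.05 in that order, against 17.6% of all genes. In the immediate-early group Fos rose by 1.49, Maff by 1.41 and the phosphatase Dusp1 by 1.08 among 22 genes, and none of the group was called on leaving out any 1 transgenic array or wild-type replicate 3. Single calls came from other lists: Flt1, a receptor of vascular growth factor, rose by 2.18, the epithelial factor Ehf by 1.79 and the sodium-glucose transporter Slc5a1 by 1.17, and the clock gene Npas2 fell by 1.59. On leaving out any array but wild-type replicate 2, the clock list had no fall and the list of Slc5a1 no rise, and without any 1 transgenic array the vessel list had no rise. Of the antioxidant group Akr1b8, an aldo-keto reductase, rose by 2.43 and Mt4, a metallothionein of differentiating epithelium, fell by 1.8. That group had no rise on leaving out any array but wild-type replicate 2, without which 4 members rose and 3 fell.

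Intact skin, with its own 6 arrays, gave a second reading of the genotype. There 384 of the same 13739 genes were called (2.79%), 235 up (1.71%) and 149 down (1.08%), with arrays that spread less within a group (median SD 0.201 against 0.456 in epidermis). Leaving out whole-skin arrays gave 99, 131 and 410 calls for transgenic replicates 1, 2 and 3 and 95, 271 and 188 for wild-type replicates 1, 2 and 3. Of the 211 epidermal increases, 91 also rose in whole skin, which is 43.1% of the epidermal and 38.7% of the whole-skin increases. Of the 116 decreases, 41 also fell, 35.3% and 27.5%. No gene was called in opposite directions. The sign was the same in whole skin for 202 of the increases and 111 of the decreases. The stress list had a median of 2.96 in whole skin and 8 of 11 members past the threshold, and the cornified envelope list a median of 0.5, with 6 rises and 1 fall among 31. The difference between the tissues was not tested, so a call in only 1 of them is no evidence that they differ.

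**Figure D5:**
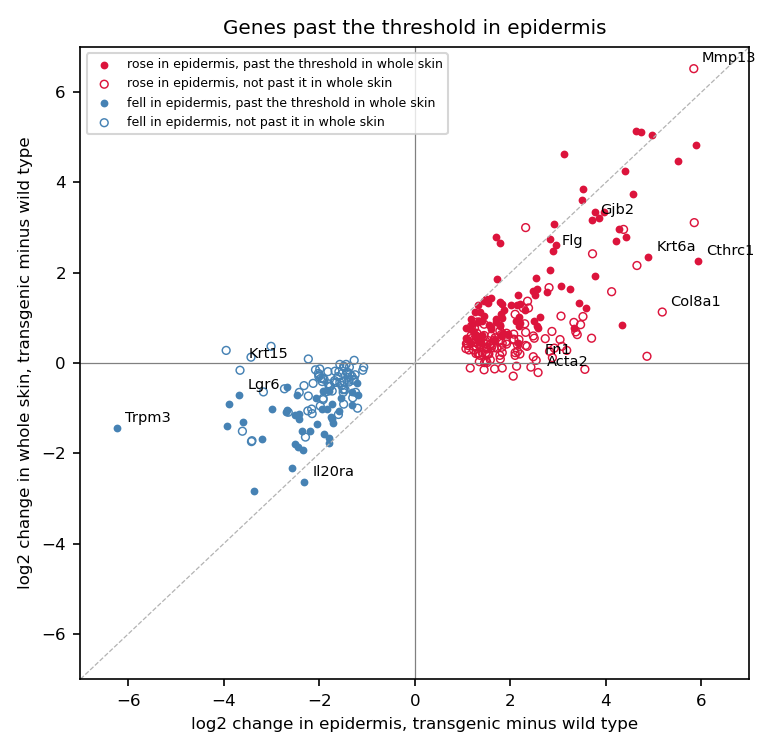
Log2 change in whole skin (vertical axis) against that in separated epidermis (horizontal axis), both transgenic minus wild type, for each gene called in epidermis; red genes rose and blue genes fell there, filled points also passed the threshold in whole skin, and the dashed line marks equal change. Fn1 and Acta2 lie near 0 on the vertical axis (0.06 and −0.21), while Krt6a and Flg lie at 2.34 and 2.48.

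The genotype effect in epidermis was also set against that in dermis over 12 arrays. The difference between the 2 effects passed the test for 3 genes (0.0218%), Gem, Krt15 and Prr9. None passed in limma's test when any 1 wild-type dermis array or transgenic dermis replicate 2 or 3 or wild-type epidermis replicate 3 was left out. Without transgenic dermis replicate 1 there were 54 such genes, and without wild-type epidermis replicate 2 there were 15. For Krt15 the effect was −3.66 in epidermis and −0.37 in dermis. The remaining epidermal calls are not shown to differ from dermis by this test, Gjb2 among them, whose effect was 2.87 in dermis.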

How the data were processed

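RNA of separated epidermis was measured on Affymetrix mouse arrays. Per the labels' protocols, skin was kept in RNAlater for 24 hours, and RNA was extracted with RNeasy Mini columns, amplified with WT Ovation Pico and labelled with biotin. The authors used MAS5, per the submitters' processing notes, an algorithm that gives all arrays the same trimmed mean; no version is stated. They deposited 45037 probe sets on 18 arrays in a single table, read here as MAS5 signal on the log2 scale because, back on the linear scale, the trimmed mean of each epidermis array, without the top and bottom 2%, lay between 98.915 and 99.271. MAS5 spreads dim probe sets widely on a log scale, and 2.81% to 8.43% of an epidermis array's values were below 0, so a large fold change against a dim group is imprecise. Column names matched the sample titles, and no column was without a sample.

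The platform annotation supplied gene names: 34945 probe sets carried 1 symbol, 932 several and 9160 none. Of the first, 34741 were found in a RefSeq table by identifier and 0 symbols changed. Each gene was read from the probe set whose mean over the 18 arrays was highest, where that mean was above the 30th percentile (log2 3.15), which kept 13739 of 18193 genes. The 6 epidermis arrays were fitted with limma 3.58.1 (lmFit and eBayes with a prior that follows mean level) in R 4.3.3, with Benjamini-Hochberg adjustment and a threshold of 0.05. Whole skin was fitted on its own 6 arrays, dermis on its own 6, and the difference of the epidermis and dermis effects on 12. Tables and figures were made with pandas 2.3.3 and matplotlib 3.10.9. The fit was tested on simulated data for the epidermis comparison, with 200 of 13739 genes changed. It recovered 47.4% of log2 changes of 2 and 67.6% of changes of 3, and 3.85% of its calls had not been changed. The simulated noise was independent between genes and equal on all arrays, whereas the real arrays differed in weight. These shares therefore do not give the error rate of the calls reported here.

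The labels do not say that the samples of a group came from separate animals, so a p-value reflects only how far these samples spread, which may be technical. The members of the gene lists, the lists themselves and the tests were chosen with earlier results of these data known. The named genes are the 15 largest increases and decreases, the called members of each list with up to 4 further members of smallest p, and 30 genes named whatever their result. Any other gene was named after its values were seen. The alternatives tried were other scalings, filters, priors, probe set choices, array weights, all 18 arrays in 1 fit, the replicate number as a block and each array left out. Counts of each list's members are given without a test of the list.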

Additional observations from a re-analysis of the deposited data

Results flagged for a closer look

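The genotype effect differed between epidermis and dermis, by the test of that difference over 12 arrays, for 3 genes. Krt15, the keratin of basal and bulge cells, changed by −3.66 in epidermis and by −0.37 in dermis on the log2 scale, a difference of −3.29 (adjusted p = 0.0424). Gem, a small GTP-binding protein, changed by −2.23 in epidermis and 0.49 in dermis, a difference of −2.72 (adjusted p = 0.0424). Prr9, a proline-rich protein, changed by −0.10 in epidermis and 4.16 in dermis, a difference of −4.26 (adjusted p = 0.0424), so its difference comes from the dermal arrays. With quantile normalization the adjusted p was 0.0657 for Gem, 0.0984 for Krt15 and 0.0657 for Prr9, and with the replicate block it was 0.0923 for each. Leaving out single arrays gave adjusted p-values on both sides of the threshold. For Krt15 they were 0.0304 without epidermis transgenic replicate 3 and 0.193 without dermis transgenic replicate 2. For Gem they were 0.0304 and 0.193 in the same fits. For Prr9 they were 0.0794 and 0.193 in those fits, and 0.00728 without epidermis wild-type replicate 1.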

How the results depend on the processing

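The number of genes called in epidermis, 327, moved by over 1.5 times under 4 settings. It was 1044 with all 18 arrays in the fit, 1670 with array weights, 60 without the trend in the prior and 114 with the replicate block (85 up and 29 down). Leaving out 1 array gave 58 to 1385 calls, the lowest without transgenic replicate 1 and the highest without wild-type replicate 2. Other filters, probe set choices, scalings and the robust prior gave 307 to 371. For the epidermis minus dermis difference, the count of 3 was 42 with all 18 arrays (2 of the 3 among them), 9 with 16 added to the linear signal (all 3 among them), 1 with the replicate block (none of the 3) and 0 with quantile normalization, and 0 to 54 with 1 array left out. For whole skin, 384 became 251 with the replicate block and 95 to 410 with 1 array left out. Quantile normalization shifted the median change of all genes from −0.0951 to 0.0470 and the common 75th percentile shifted it to 0.0185. Of 150 named genes past the threshold, 133 kept the call with quantile normalization, 120 with the mean of all probe sets, 70 with the replicate block, 33 without the trend and 38 to 150 with 1 array left out. Lrrc17 turned to −1.39 with the probe set chosen on the epidermis arrays, and Uqcrq to −0.17 with the mean of its probe sets, since their probe sets disagree. Same-numbered transgenic and wild-type arrays deviated from their group means with correlations of −0.211, −0.345 and 0.042. These values cannot settle whether the numbers pair the samples, because deviations from a mean of 3 arrays constrain each other. The cause of the other moves was not tested. Dim genes are limited by signal near background, and 3 arrays per group limit all counts.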

Other observations

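Some called genes outside the lists were chosen after their values were seen. Ero1a, an oxidase of the secretory pathway that hypoxia induces, rose by 1.69 and its other probe sets by 1.54 to 2.23. Slc16a1, a lactate transporter, rose by 1.51 and its other probe set by 1.81. Gch1, which makes the cofactor tetrahydrobiopterin, rose by 4.34 on the log2 scale, Chil1, a chitinase-like protein, by 4.27, and Duox1, an oxidase that makes hydrogen peroxide, by 3.40. Atp12a, a proton pump, rose by 2.48 ± 0.24 (SE, adjusted p = 0.000834 in limma). The lysosomal proteases Ctsb and Ctsc rose by 1.52 and 1.79, and the tubulins Tubb6 and Tuba8 by 2.35 and 1.78.

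Among regulators that fell, Hoxa3 changed by −1.57 and Hoxa5 by −1.94. Satb1, a chromatin organiser of differentiating epidermis, changed by −1.55, with its other probe sets at −2.65 to −1.13. Ascl2, a Wnt target in intestinal stem cells, changed by −2.04, and Nkd2, an antagonist of Wnt signals, by −2.32. The zinc finger genes Zfp934, Zfp945 and Zfp950 changed by −1.68, −2.01 and −1.81.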
